A study of Mus musculus with 8 samples.

Results

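The genes described here are the 39 Hox genes of the mouse's 4 Hox clusters, chosen as every symbol made of Hoxa, Hoxb, Hoxc or Hoxd and a number in both count tables, out of 24421 symbols. There are 11 Hoxa genes on chromosome 6, 10 Hoxb genes on chromosome 11, 9 Hoxc genes on chromosome 15 and 9 Hoxd genes on chromosome 2. PolyA RNA was sequenced from 8 libraries of mouse embryonic stem cells cultured in 2i/LIF, conditions that maintain naive pluripotency, in 4 groups of 2. Ubc9 depletion was induced in the v6.5 line by 72 hours of doxycycline and set against v6.5 control cells; the labels say neither whether those controls also received doxycycline nor which construct it acts on. H1 TKO cells, in which the linker histones H1.2, H1.3 and H1.4 are knocked out, were compared with H1 control cells, both taken from an earlier publication; the labels do not name the line or the number of clones. Nothing in the labels tells whether paired libraries are separate cultures, so p-values measure only the spread between these libraries, which may be technical.

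Hox genes encode homeodomain transcription factors that give cells along the body axis their positional identity. Within a cluster they lie in an ordered row, with low-numbered (anterior) genes at one end and high-numbered (posterior) genes at the other, and in embryos they are switched on roughly in that order, with retinoic acid as an early inducer. In embryonic stem cells the clusters are known as large Polycomb domains with little transcription. Ubc9 is the E2 enzyme that attaches SUMO to its targets, and linker histones bind the nucleosome where DNA enters and leaves it and help to compact chromatin.

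The libraries held between 44441713 and 102780141 counts, of which the Hox genes took 69.6 to 134 counts per 1000000 counts (CPM) in all. Hist1h1c, Hist1h1d and Hist1h1e (H1.2, H1.3 and H1.4) had 0 counts in both H1 TKO libraries against 100 to 231 counts in each H1 control library. All 11 listed naive embryonic stem cell markers passed the expression filter in both comparisons, with summed levels of 5064 to 5672 CPM in the Ubc9 libraries, 10937 and 10791 CPM in H1 TKO and 5602 and 6098 CPM in H1 control. Of these 11 markers, Tfcp2l1 rose in H1 TKO and none fell, while in Ubc9-depleted cells Prdm14 rose (0.38 ± 0.11) and Dppa3 (-1.39 ± 0.11) and Tfcp2l1 (-0.46 ± 0.14) fell.

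In H1 TKO cells the clusters moved apart: 5 neighbouring Hoxd genes rose by 3.92 to 4.34 on the log2 scale, 7 of 8 tested Hoxa genes fell, those described below by 2.64 to 3.72 on the log2 scale, 3 of 9 Hoxc genes fell, and 0 of the 4 tested Hoxb genes passed the test (0 also at an unadjusted p under 0.05 in edgeR, and 0 by DESeq2). Of the Hoxd genes that rose, Hoxd3, Hoxd4 and Hoxd10 had 1 to 9 counts in each control library. They passed the expression filter only through the TKO libraries, so the sizes of their rises are imprecise. The test was edgeR's quasi-likelihood test on counts with Benjamini-Hochberg adjustment over all 14800 genes tested, and a gene is called when its adjusted p is under 0.05. Of the 39 members 29 passed the expression filter, and 5 (17.2%) were called higher and 10 (34.5%) lower, against 8.59% of all tested genes called higher and 8.43% called lower. The median log2 fold change of the tested members was -0.72, against -0.02 over all genes. The 10 members not tested, Hoxa6, Hoxa11, Hoxa13, Hoxb1, Hoxb3, Hoxb5, Hoxb6, Hoxb7, Hoxb8 and Hoxd12, had 0 to 15 counts in each H1 library.

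**Figure D1:**
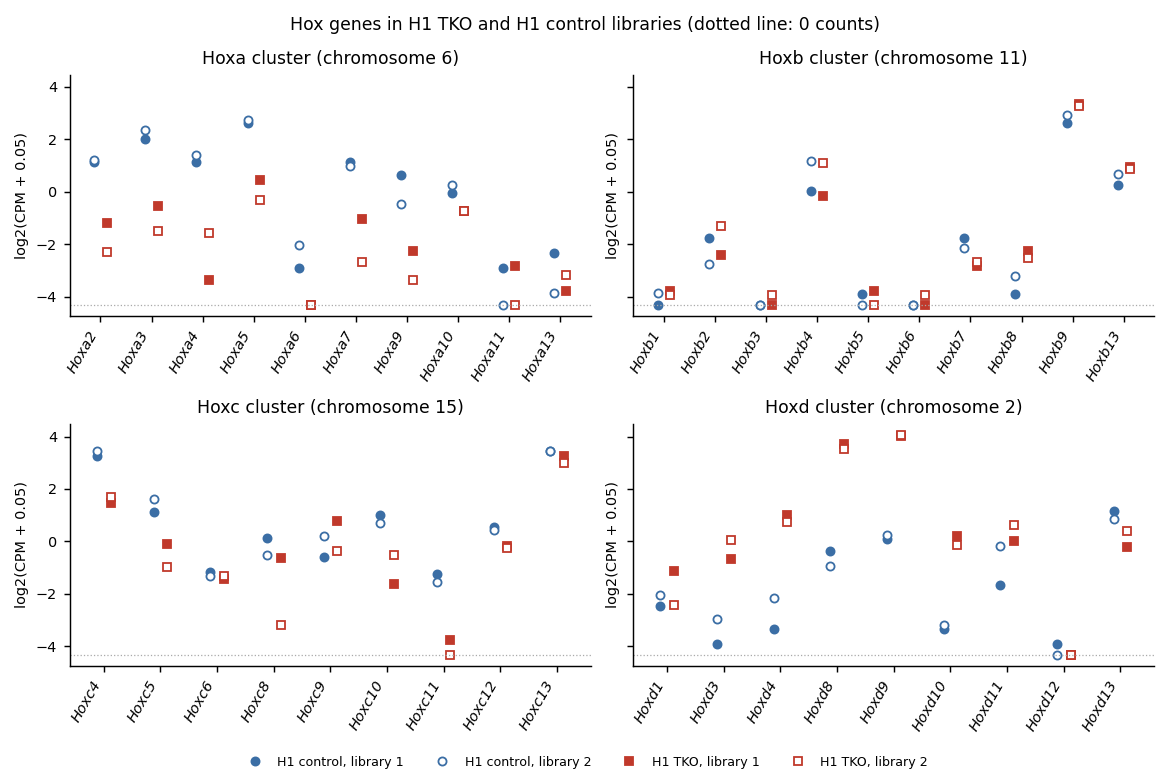
Levels of Hox genes in the 4 H1 libraries, one panel per cluster with genes in paralogue order; the vertical axis is log2(CPM + 0.05), circles are H1 control and squares H1 TKO, filled for library 1 and open for library 2. Both TKO squares lie below both control circles from Hoxa2 to Hoxa10 and above them from Hoxd3 to Hoxd10, while the Hoxb panel shows mostly overlapping or close values.

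The Hoxd genes that rose are Hoxd3, Hoxd4, Hoxd8, Hoxd9 and Hoxd10, which follow one another on the plus strand of chromosome 2 between positions 74691924 (the start of Hoxd10) and 74748442 (the end of Hoxd3) in GRCm38. Their promoters are shown because these genes rose together; each window is the RefSeq (GRCm38.p6) promoter from 250 bases before to 50 bases after the annotated start, 5′ to 3′ on the gene's strand, with each CpG in capitals. The windows are chr2:74704365-74704664 (Hoxd8), chr2:74697513-74697812 (Hoxd9) and chr2:74691641-74691940 (Hoxd10).
Hoxd8: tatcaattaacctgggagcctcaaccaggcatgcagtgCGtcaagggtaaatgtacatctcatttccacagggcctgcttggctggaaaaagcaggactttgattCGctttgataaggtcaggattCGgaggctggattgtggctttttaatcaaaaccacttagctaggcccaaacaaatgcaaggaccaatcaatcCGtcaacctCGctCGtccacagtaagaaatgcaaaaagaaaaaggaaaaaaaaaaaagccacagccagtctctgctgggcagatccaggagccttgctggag
Hoxd9: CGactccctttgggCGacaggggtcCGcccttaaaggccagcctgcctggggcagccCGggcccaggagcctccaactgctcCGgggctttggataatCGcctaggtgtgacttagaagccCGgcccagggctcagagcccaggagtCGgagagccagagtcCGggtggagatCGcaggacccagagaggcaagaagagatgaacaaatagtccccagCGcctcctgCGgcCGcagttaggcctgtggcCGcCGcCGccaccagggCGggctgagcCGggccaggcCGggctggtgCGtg
Hoxd10: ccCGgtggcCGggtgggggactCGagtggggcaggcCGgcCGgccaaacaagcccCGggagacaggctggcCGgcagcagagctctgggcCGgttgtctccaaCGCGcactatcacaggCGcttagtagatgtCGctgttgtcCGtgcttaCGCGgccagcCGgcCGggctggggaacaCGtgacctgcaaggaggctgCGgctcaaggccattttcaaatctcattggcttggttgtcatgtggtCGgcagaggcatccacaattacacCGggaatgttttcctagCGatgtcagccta

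Hoxd9 and Hoxd10 had 20 and 22 CpG in these windows, Hoxd3 had 20, and Hoxd8 and Hoxd4 had 6 and 4, so the genes that rose together did not share a CpG-rich window. Other annotated starts of a gene can lie outside its window: that of Hoxd4 began at 74721728, while the annotated gene began at 74711929. CpG-rich promoters are, as background, where Polycomb complexes are known to gather in embryonic stem cells. The bearing of CpG content on these changes was not tested. Promoter windows were matched for 22 of the 39 Hox genes (24 windows). These windows held 4 to 45 CpG with a median of 14.5, against a median of 7 over the 32851 windows of the table, and 12 of 24 (50%) held at least 15 CpG against 34.64% of all. The letters TGATNNAT, a form of the site bound by PBX and HOX proteins together, were found on either strand in 4 of 24 windows (16.67%) and in 8.846% of all windows. A match is only a description of the letters.

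Hoxd9, a gene of the middle of its cluster, had the highest level per kilobase of exon of all Hox genes in H1 TKO cells, at 7.65 CPM per kb. It measured 16.2 and 16.5 CPM in TKO libraries 1 and 2 and 1.02 and 1.14 CPM in control libraries 1 and 2. Both TKO libraries were far above both controls, a log2 fold change of 3.92 ± 0.25 (SE; edgeR adjusted p = 0.00049). Its neighbour Hoxd8 measured 12.9 and 11.4 CPM in TKO and 0.722 and 0.466 CPM in control, again with no overlap (4.34 ± 0.32, edgeR adjusted p = 0.00067). With each library left out in turn, the log2 fold change was 3.84 to 4.00 for Hoxd9 and 4.06 to 4.70 for Hoxd8. In such fits, here and below, 1 library stands alone in its group, and its spread is taken from the other libraries fitted. A kept or lost call therefore also follows that spread. It does not alone show that a result rests on the library left out.

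Hoxd4, known for its response to retinoic acid, measured 1.94 and 1.62 CPM in TKO and 0.0492 and 0.175 CPM in control (3 and 9 counts). The log2 fold change was 3.99 ± 0.73 (edgeR adjusted p = 0.013), and the call held with each library left out in turn, with a value of 3.33 without control library 1 and 5.11 without control library 2. Hoxd10 measured 1.12 and 0.869 CPM in TKO and 0.0492 and 0.0582 CPM in control, where each library had 3 counts. Its log2 fold change of 4.16 ± 0.82 (edgeR adjusted p = 0.014) lost the call without TKO library 1 (adjusted p = 0.13) or TKO library 2 (adjusted p = 0.059). Hoxd3 measured 0.571 and 0.976 CPM in TKO and 0.0164 and 0.0776 CPM in control. Its log2 fold change was 4.03 ± 1.02 (edgeR adjusted p = 0.032), and the call was lost without TKO library 1 (adjusted p = 0.073) or TKO library 2 (adjusted p = 0.34). The value was 3.29 without control library 1 and 5.39 without control library 2. Annotated Hoxd3 and Hoxd4 share 388 exonic bases on the same strand. How reads there were counted is not given, so the counts of these genes may not be fully separate.

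The genes at both ends of the Hoxd row were not called. Hoxd11 measured 0.959 and 1.48 CPM in TKO against 0.263 and 0.834 CPM in control (1.16 ± 0.70, edgeR adjusted p = 0.30). Hoxd13, the most posterior gene, measured 0.822 and 1.25 CPM against 2.18 and 1.75 CPM (-0.91 ± 0.46, edgeR adjusted p = 0.22). Hoxd1 measured 0.411 and 0.137 CPM against 0.131 and 0.194 CPM, which overlap. The summed Hoxd level was 34.9 and 34.3 CPM in TKO and 4.45 and 4.69 CPM in control, a log2 ratio of 2.92. The 5 listed neighbours of the Hoxd cluster (Mtx2, Lnp, Hnrnpa3, Atf2 and Atp5g3) had log2 fold changes of -0.21 to 0.05 (edgeR adjusted p of 0.55 to 0.92). Haglr, a non-coding RNA that starts between Hoxd1 and Hoxd3, had 21 and 21 counts in TKO and 0 in both controls (edgeR adjusted p = 0.028).

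In the Hoxa cluster the fall reached through Hoxa9. The promoters of Hoxa2 and Hoxa5, 2 of the Hoxa genes that fell, are shown for comparison with those of the Hoxd genes, as the same RefSeq windows with CpG in capitals: chr6:52164782-52165081 for Hoxa2 and chr6:52204538-52204837 for Hoxa5, both on the minus strand.
Hoxa2: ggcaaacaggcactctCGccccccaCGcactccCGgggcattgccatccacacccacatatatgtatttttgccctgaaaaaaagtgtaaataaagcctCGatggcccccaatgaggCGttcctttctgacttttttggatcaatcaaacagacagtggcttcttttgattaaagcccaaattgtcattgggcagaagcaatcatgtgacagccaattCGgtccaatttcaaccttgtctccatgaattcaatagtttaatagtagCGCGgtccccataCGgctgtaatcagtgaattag
Hoxa5: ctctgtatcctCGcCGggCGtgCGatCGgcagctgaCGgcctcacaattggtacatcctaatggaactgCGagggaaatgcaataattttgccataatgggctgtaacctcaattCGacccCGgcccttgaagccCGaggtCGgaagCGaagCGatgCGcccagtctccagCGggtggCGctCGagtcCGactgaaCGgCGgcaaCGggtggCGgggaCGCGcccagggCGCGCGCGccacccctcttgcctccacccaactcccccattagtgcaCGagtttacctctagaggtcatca

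Hoxa5 had 29 CpG in its window and Hoxa2 had 9; Hoxa3, Hoxa7 and Hoxa9 had 20, 9 and 4. The Hoxa genes that fell, like the Hoxd genes that rose, spanned a range from CpG-poor to CpG-rich windows. Hoxa2, which patterns the hindbrain and the second pharyngeal arch, measured 0.388 and 0.153 CPM in TKO and 2.15 and 2.25 CPM in control (-3.06 ± 0.59, edgeR adjusted p = 0.016). Hoxa3 measured 0.639 and 0.305 CPM against 4.02 and 5.08 CPM (-3.30 ± 0.46, edgeR adjusted p = 0.0049). All TKO values of both genes were below all control values. Hoxa2 lost its call without TKO library 2 (adjusted p = 0.063).

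Hoxa4 measured 0.0457 and 0.290 CPM in TKO, 2 and 19 counts, and 2.15 and 2.60 CPM in control (-3.72 ± 0.73, edgeR adjusted p = 0.016). Hoxa5 measured 1.3 and 0.747 CPM against 6.11 and 6.54 CPM (-2.64 ± 0.36, edgeR adjusted p = 0.0048). The calls of Hoxa3, Hoxa4 and Hoxa5 held with each of the 4 libraries left out. Hoxa7 measured 0.434 and 0.107 CPM against 2.12 and 1.90 CPM (-2.94 ± 0.69, edgeR adjusted p = 0.032), and its call was lost without TKO library 2 (adjusted p = 0.13). Hoxa9, a posterior gene best known from blood stem cells and leukaemia, measured 0.160 and 0.0458 CPM against 1.51 and 0.679 CPM (-3.46 ± 0.89, edgeR adjusted p = 0.041). It lost the call without TKO library 2 (adjusted p = 0.23) or control library 1 (adjusted p = 0.066). The sizes of these falls depended on the TKO libraries. Without TKO library 1 the log2 fold change was -3.85 for Hoxa2, -3.91 for Hoxa3, -3.04 for Hoxa4, -4.23 for Hoxa7 and -4.55 for Hoxa9. Without TKO library 2 it was -5.63 for Hoxa4, -2.21 for Hoxa7 and -2.76 for Hoxa9, and without control library 1 it was also -2.76 for Hoxa9. Hoxa10 did not pass the test: 0.548 and 0.549 CPM in TKO lay below 0.919 and 1.14 CPM in control (-0.91 ± 0.58, edgeR adjusted p = 0.33).

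The median of chromosome 6 was lower in H1 TKO libraries, though not evenly along its length, which touches the Hoxa result directly. Without the Hoxa genes, its 692 tested genes had a median log2 fold change of -0.43, and 183 of them (26.4%) were called lower and 50 higher. When each gene was set against the median of its own chromosome, 8 of the 10 calls of lower members held. Hoxa3 was among them, at -2.85 (edgeR adjusted p = 0.0089). The 10 include 3 Hoxc genes on chromosome 15, whose median without Hox genes was 0.09, so this setting hardly moved them. Of the 7 lower Hoxa calls, those of Hoxa7 (-2.50, edgeR adjusted p = 0.055) and Hoxa9 (-3.02, edgeR adjusted p = 0.064) were lost. All 5 higher Hoxd calls held. The chromosome median is not the level beside the cluster: within 2 Mb on each side, the other tested genes had a median of -1.36. The labels give no copy number of the TKO line. A changed dosage of chromosome 6, or of part of it, and a change of transcription cannot be told apart.

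The genes around the Hoxa cluster differed by distance and side. Within 5 Mb on each side, the 65 other tested genes had a median of -0.15, and 8 were called lower; within 2 Mb, the 16 other tested genes had a median of -1.36, and 7 were called lower. On the anterior side of the cluster, the listed neighbours Skap2, an adaptor protein of immune cells, and Snx10, a sorting nexin of the endosome, fell (-2.17 ± 0.20 and -2.59 ± 0.28, edgeR adjusted p = 0.0011 and 0.0020). Cbx3, Hnrnpa2b1 and the non-coding Halr1, picked out after their values were seen, fell there too, by 1.97, 1.60 and 2.01 on the log2 scale. On the posterior side, the listed neighbours Hibadh and Tax1bp1 had log2 fold changes of 0.08 ± 0.20 and -0.27 ± 0.25 and were not called. Hoxa10, the most posterior tested Hoxa gene, lies nearest that side.

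**Figure D2:**
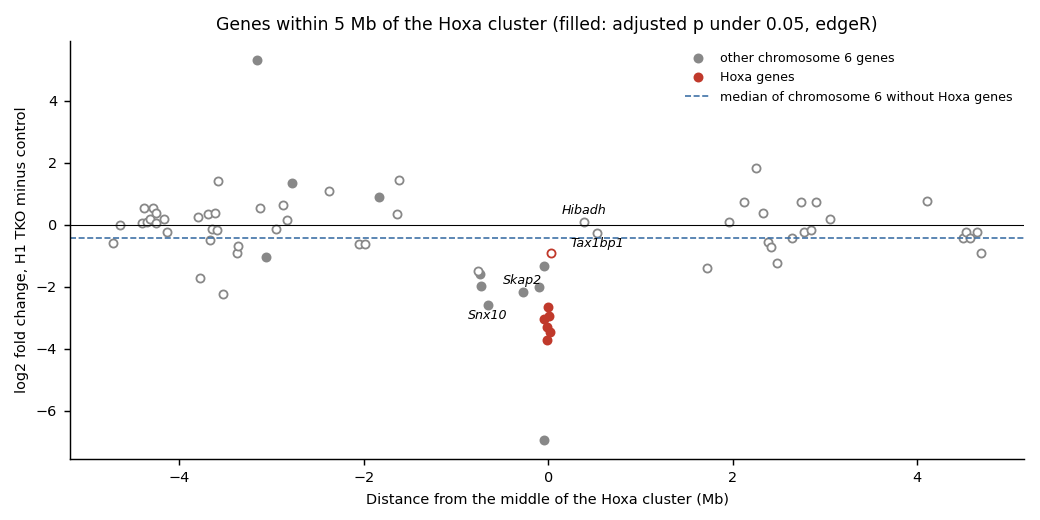
Log2 fold change in H1 TKO cells (vertical axis) of tested genes within 5 Mb of the middle of the Hoxa cluster, by distance in Mb (horizontal axis; negative values are the anterior side); red points are Hoxa genes, grey points other genes, filled where the edgeR adjusted p is under 0.05, and the dashed line is the median of chromosome 6, -0.43. Every called gene from Hnrnpa2b1 to Hoxa9 lies at -1.34 or below, and Hibadh and Tax1bp1 on the other side lie near 0; the lowest point is Hoxaas2, with 0 counts in TKO, whose fitted value is no bound.

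Non-coding RNAs of the Hoxa cluster were lower as well. Of 5 tested RNAs on the list of Hox cluster non-coding RNAs 3 fell and 1 rose, the latter being Haglr. Hotairm1 had 70 and 142 counts in TKO and 299 and 239 in control (-1.34 ± 0.33, edgeR adjusted p = 0.034). Mira had 5 and 34 counts against 179 and 186 (-3.30 ± 0.64, edgeR adjusted p = 0.016), and Hoxaas2 had 0 in both TKO libraries against 12 and 18 (edgeR adjusted p = 0.045). Hoxaas2 shares 503 exonic bases with Hoxa3 on the opposite strand. Whether counting used strand is not given in the sources used here, so reads of this pair cannot be told apart.

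Among the 9 Hoxc genes, 8 had a log2 fold change below 0 in H1 TKO cells, and Hoxc4, Hoxc5 and Hoxc11 were called lower. Hoxc4, the most anterior Hoxc gene, measured 2.74 and 3.16 CPM in TKO and 9.41 and 10.9 CPM in control (-1.78 ± 0.26, edgeR adjusted p = 0.0060), a call that held with each library left out. Hoxc5 measured 0.890 and 0.458 CPM against 2.13 and 3.05 CPM (-1.96 ± 0.50, edgeR adjusted p = 0.040), and the call was lost without TKO library 2 (adjusted p = 0.28) and in a fit of all 8 libraries (adjusted p = 0.060). Hoxc11 had 1 and 0 counts in TKO and 23 and 15 in control, 37.0-fold lower with a 95% counting interval of 6.24 to 1498 (edgeR adjusted p = 0.048). That call was lost without TKO library 1 (adjusted p = 0.22), TKO library 2 (adjusted p = 0.52) or control library 1 (adjusted p = 0.053), and without the expression filter (adjusted p = 0.071). Hoxc10 measured 0.274 and 0.656 CPM against 1.97 and 1.59 CPM (-1.91 ± 0.58, edgeR adjusted p = 0.068); it was called by DESeq2 (adjusted p = 0.025), without the expression filter (edgeR, 0.020) and in a fit of all 8 libraries (edgeR, 0.012). Annotated Hoxc5 and Hoxc10 share 166 exonic bases.

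The other Hoxc genes were not called in H1 TKO cells. Hoxc13, a regulator of hair and nail keratins, measured 9.61 and 7.85 CPM in TKO against 11 and 10.9 CPM in control (-0.33 ± 0.24, edgeR adjusted p = 0.40). Hoxc12, beside it, measured 0.845 and 0.793 CPM against 1.4 and 1.3 CPM (-0.72 ± 0.49, edgeR adjusted p = 0.36). Hoxc6, Hoxc8 and Hoxc9 had log2 fold changes of -0.15, -1.40 and 0.48. In the Hoxb cluster, Hoxb9 measured 10.1 and 9.61 CPM in TKO and 6.14 and 7.64 CPM in control. Both TKO values lay above both controls, but the difference did not pass (0.51 ± 0.25, edgeR adjusted p = 0.21). Hoxb13 measured 1.87 and 1.77 CPM against 1.13 and 1.55 CPM (0.44 ± 0.43), and Hoxb4 and Hoxb2 overlapped between the groups (-0.08 ± 0.61 and 0.51 ± 0.97; edgeR adjusted p of 0.53 to 0.94 for these 3). Beside these clusters, the listed neighbours Calcoco2 (Hoxb side, 0.92 ± 0.18) and Nfe2 (Hoxc side, 2.59 ± 0.41) rose and Ttll6 (Hoxb side, -1.28 ± 0.23) fell. With Skap2 and Snx10, which lie on chromosome 6, 2 of 19 tested neighbours rose and 3 fell. Of all tested genes 8.59% were called higher and 8.43% lower.

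In Ubc9-depleted cells the Hox genes showed no common direction. Of 35 tested members 6 (17.1%) were called higher and 4 (11.4%) lower, against 21.1% of all 16499 tested genes called higher and 15% called lower. With both depleted libraries in the fit, the members' shares were thus near or below the background. The median log2 fold change was 0.27 against 0.06 over all genes. The genes that rose were Hoxd1, Hoxd11, Hoxd12, Hoxd13, Hoxa3 and Hoxb3, and Hoxa9, Hoxb13 and Hoxc4 were among those that fell. Hoxb1, Hoxb5, Hoxb6 and Hoxb8 did not pass the expression filter.

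**Figure D3:**
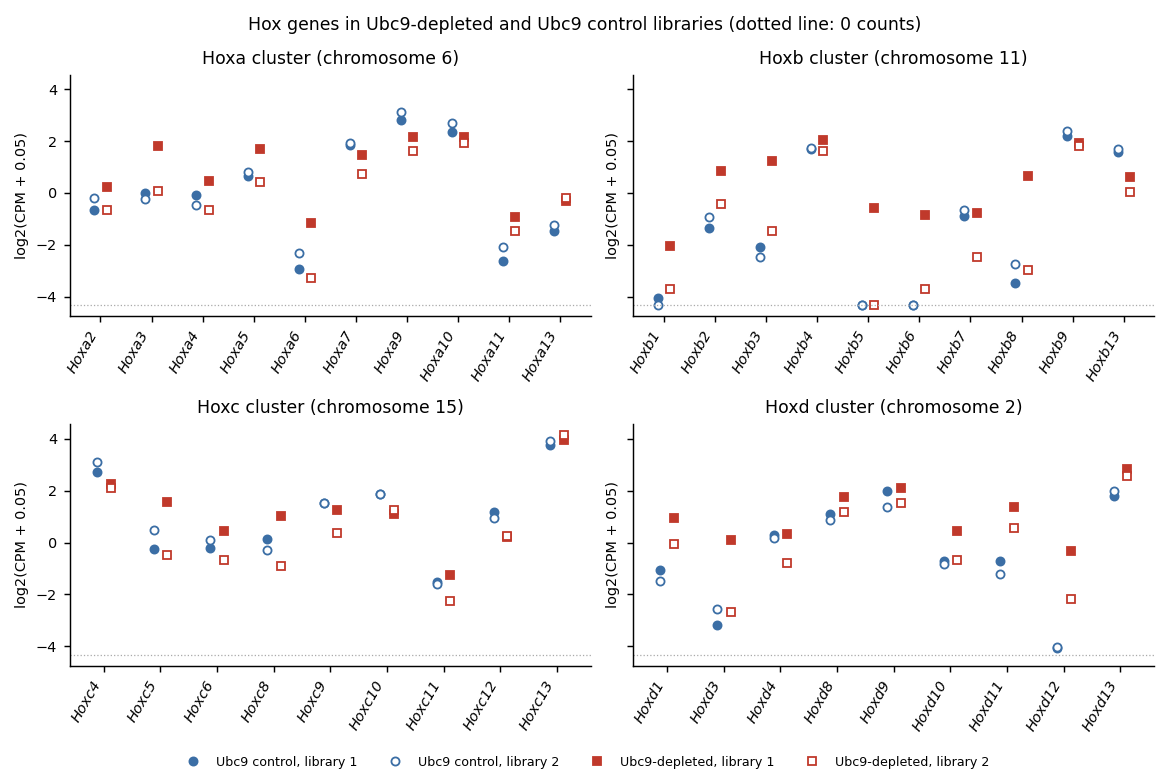
Levels of Hox genes in the 4 Ubc9 libraries, one panel per cluster; the vertical axis is log2(CPM + 0.05), circles are Ubc9 control and squares Ubc9-depleted, filled for library 1 and open for library 2. Filled squares (Ubc9-depleted library 1) lie above open squares for most genes, with the widest gaps in the Hoxb panel.

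At the posterior end of the Hoxd cluster both depleted libraries stood above both controls. Hoxd13, which patterns digits and the urogenital tract, measured 7.19 and 5.83 CPM in depleted libraries 1 and 2 and 3.46 and 3.95 CPM in controls (0.81 ± 0.20, edgeR adjusted p = 0.0021). Hoxd11 measured 2.55 and 1.41 CPM against 0.556 and 0.380 CPM (2.08 ± 0.56, edgeR adjusted p = 0.0062). Hoxd12, between them, had 75 and 13 counts against 1 and 1, a ratio of 47.2 with a 95% counting interval of 12.7 to 396 (edgeR adjusted p = 0.0031). Library 1 held most of its counts, and the fitted log2 fold change of 5.28 was 3.84 without that library and 5.91 without library 2. Hoxd1, at the other end, measured 1.90 and 0.904 CPM against 0.432 and 0.304 CPM (1.92 ± 0.66, edgeR adjusted p = 0.026). Hoxd1 stood at 1.28 without depleted library 1. Without depleted library 1 Hoxd13 stood at 0.65 and Hoxd11 at 1.58. Without control library 1 the log2 fold change was 0.69 for Hoxd13, 2.35 for Hoxd11, 5.20 for Hoxd12 and 2.17 for Hoxd1. Without control library 2 it was 0.88, 1.79, 5.27 and 1.66 in the same order. With 1 control library left, the spread came from the depleted pair, so calls in those fits are not read. In a fit of all 8 libraries none of the 6 higher calls held (adjusted p of 0.073 to 0.16), and Hoxd1 was also not called without the expression filter (adjusted p = 0.065) or with library totals (adjusted p = 0.050).

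The genes of the middle of the Hoxd cluster, which rose in H1 TKO cells, were not called in Ubc9-depleted cells. Hoxd9 measured 4.29 and 2.80 CPM in depleted libraries and 3.95 and 2.56 CPM in controls (0.12 ± 0.29, edgeR adjusted p = 0.76). Hoxd8 measured 3.30 and 2.19 CPM against 2.08 and 1.76 CPM (0.52 ± 0.35, edgeR adjusted p = 0.25), and Hoxd4 and Hoxd10 had log2 fold changes of -0.36 ± 0.62 and 0.81 ± 0.70. Hoxd3 measured 1.03 CPM in depleted library 1 and 0.105, 0.0618 and 0.120 CPM in depleted library 2 and the controls (edgeR adjusted p = 0.054, and 0.039 with RLE factors).

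Hoxa9, Hoxc4 and Hoxb13 fell, with both depleted libraries below both controls. Hoxa9 measured 4.40 and 3.00 CPM against 6.93 and 8.67 CPM (-1.07 ± 0.19, edgeR adjusted p = 7.2e-05), and Hoxc4 measured 4.67 and 4.24 CPM against 6.57 and 8.46 CPM (-0.75 ± 0.17, edgeR adjusted p = 0.0012). Hoxb13, the most posterior Hoxb gene and a prostate and tail regulator, measured 1.47 and 0.969 CPM against 2.96 and 3.16 CPM (-1.33 ± 0.38, edgeR adjusted p = 0.0076). Without control library 1 the log2 fold change was -1.25 for Hoxa9, -0.95 for Hoxc4 and -1.40 for Hoxb13. Without control library 2 it was -0.94, -0.59 and -1.32 in the same order. Scaling by library totals alone, which raised the median of all genes from 0.06 to 0.25, gave 5 higher and 1 lower member, Hoxa9, in place of 6 and 4. In a fit of all 8 libraries Hoxa9 (adjusted p = 0.13) and Hoxb13 (adjusted p = 0.057) were not called.

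Hoxa3 and Hoxb3 rested on Ubc9-depleted library 1. Hoxa3 measured 3.49 CPM there and 1.01 CPM in depleted library 2, against 0.947 and 0.793 CPM in controls. Its log2 fold change of 1.37 ± 0.52 (edgeR adjusted p = 0.043) fell to 0.21 without depleted library 1 (adjusted p = 0.71), and it was not called by DESeq2 (adjusted p = 0.053), with library totals (0.087), without the expression filter (0.056), in a fit of all 8 libraries (0.14) or against the chromosome median (0.060). Hoxb3 measured 2.29 CPM in depleted library 1 and 0.314 CPM in depleted library 2, against 0.185 and 0.130 CPM (3.04 ± 0.80, edgeR adjusted p = 0.0058). Without library 1 it stood at 0.98 (adjusted p = 0.29), and without library 2 at 3.76. Without control library 1 the log2 fold change was 1.47 for Hoxa3 and 3.27 for Hoxb3. Without control library 2 it was 1.20 and 2.76.

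The depleted libraries differed from each other across the Hox genes. Without library 1, 5 members were called higher and 12 lower, against 19% and 15.3% of all genes; without library 2 it was 18 and 9, against 41.8% and 22.9%. Library 1 was higher than library 2 in 35 of 39 members, with a median log2 ratio of 1.02 (CPM + 0.05). In all genes the share was 65.9% and the median 0.26. In genes with a control mean under 0.5 CPM the share was 95.2%, against 13 of 14 Hox genes (92.9%) in that range. From 0.5 CPM up to the level of the highest Hox gene it was 73.2%, against 22 of 25 Hox genes (88%). Depleted library 1 had counts for 23462 genes and depleted library 2 for 19591. The gap was widest in Hoxb5, Hoxb8 and Hoxb6, all with a control mean under 0.5 CPM and none of them tested. Hoxb5 had 62 and 0 counts in depleted libraries 1 and 2 and 0 in both controls, Hoxb6 had 51 and 2 against 0 and 0, and Hoxb8 had 153 and 6 against 4 and 9. Nearly all depleted counts of these 3 genes came from library 1. Hoxb2, tested, measured 1.73 and 0.694 CPM against 0.340 and 0.478 CPM (1.57 ± 0.68, edgeR adjusted p = 0.077).

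**Figure D4:**
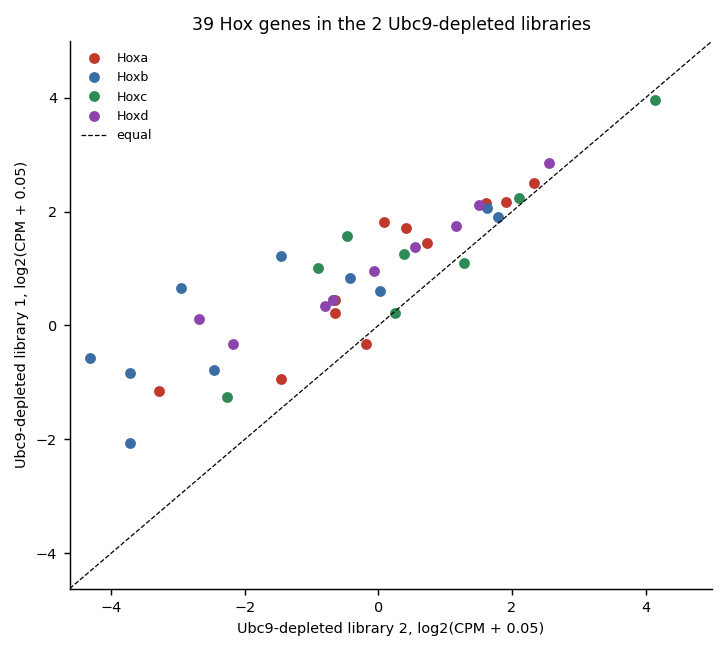
The 39 Hox genes in Ubc9-depleted library 2 (horizontal axis) and library 1 (vertical axis), both as log2(CPM + 0.05), coloured by cluster, with a dashed line where they are equal. Of the points, 35 lie above the line, and Hoxb5, Hoxb8 and Hoxb6 lie farthest above it.

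Hoxc13, Hoxa7, Hoxa10 and Hoxc10 were not called in Ubc9-depleted cells. Hoxc13 had the highest level per kilobase of the Hox genes in both Ubc9 groups (5.81 CPM per kb in controls and 6.71 in depleted cells) and measured 15.4 and 17.6 CPM against 13.6 and 15 CPM (0.21 ± 0.11, edgeR adjusted p = 0.15, and 0.028 with library totals). Hoxa7 and Hoxa10 lay just outside the threshold, at -0.76 ± 0.30 and -0.49 ± 0.21 (edgeR adjusted p = 0.051 and 0.066), with both depleted libraries below both controls. Hoxc10 was similar at -0.69 ± 0.29 (edgeR adjusted p = 0.061). With RLE factors Hoxa7, Hoxa10 and Hoxc10 were called lower (edgeR adjusted p = 0.025, 0.034 and 0.039), and against chromosome medians they were too (edgeR adjusted p = 0.022, 0.021 and 0.047). The log2 ratio of the summed level was -0.40 for Hoxa, 0.04 for Hoxb, -0.14 for Hoxc and 0.73 for Hoxd, and the depleted libraries alone spanned 18.0 to 27.9 CPM for Hoxa and 14.5 to 23.5 CPM for Hoxd.

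Fibroblast and feeder cell markers moved in the same comparison: 11 of 14 tested were called higher in Ubc9-depleted cells and none lower. Of all genes tested in that comparison, 21.1% were called higher and 15% lower. The 15 listed markers summed to 86.1 and 76.1 CPM in depleted libraries against 38.6 and 36.4 CPM in controls. Without depleted library 1, 13 of 14 were called higher. None of the 15 was at 0 in every Ubc9 library. In the H1 comparison 1 of 7 tested was higher, the sums were 23.9 and 22.0 CPM against 13.4 and 15.9 CPM, and Postn and Prrx1 were at 0 in every library. Of tested neuroectoderm, mesoderm and primitive endoderm markers, 3 of 8, 1 of 6 and 5 of 7 were higher and 0, 2 and 1 lower in Ubc9-depleted cells. In H1 TKO cells 0 of 7, 1 of 6 and 1 of 7 were higher and 1, 2 and 0 lower, against 8.59% and 8.43% of all tested genes. The part of such cells in the Hox values was not tested. In bulk RNA a change in the number of cells of a type and a change in RNA per cell cannot be told apart.

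The difference between the effects of Ubc9 depletion and H1 loss was itself tested, as an interaction in 1 fit of all 8 libraries. Of 36 tested members, the Ubc9 effect was higher in 7 (19.4%) and lower in 4 (11.1%), against 8.08% and 6.43% of all 16974 tested genes. The 7 included Hoxa2 to Hoxa5, Hoxc4 and Hoxd13, and the 4 were Hoxd4, Hoxd8, Hoxd9 and Hoxb9. Hoxa9 and Hoxc4 fell in both, and Hoxa3 fell in H1 TKO cells, while its higher call in Ubc9-depleted cells rested on depleted library 1 (0.21 without it). The comparisons used different library kits, ScriptSeq v2 for the Ubc9 cells and Lexogen SENSE V2 for the H1 cells. The line of the H1 cells is not named, so it may differ from v6.5. Each effect is measured within 1 kit, but the difference between them carries the kits and any difference of line. For the Hoxa genes it also carries chromosome 6, whose median without them was -0.43 in H1 TKO and 0.12 in Ubc9-depleted cells. The interaction was not set against chromosome medians.

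**Figure D5:**
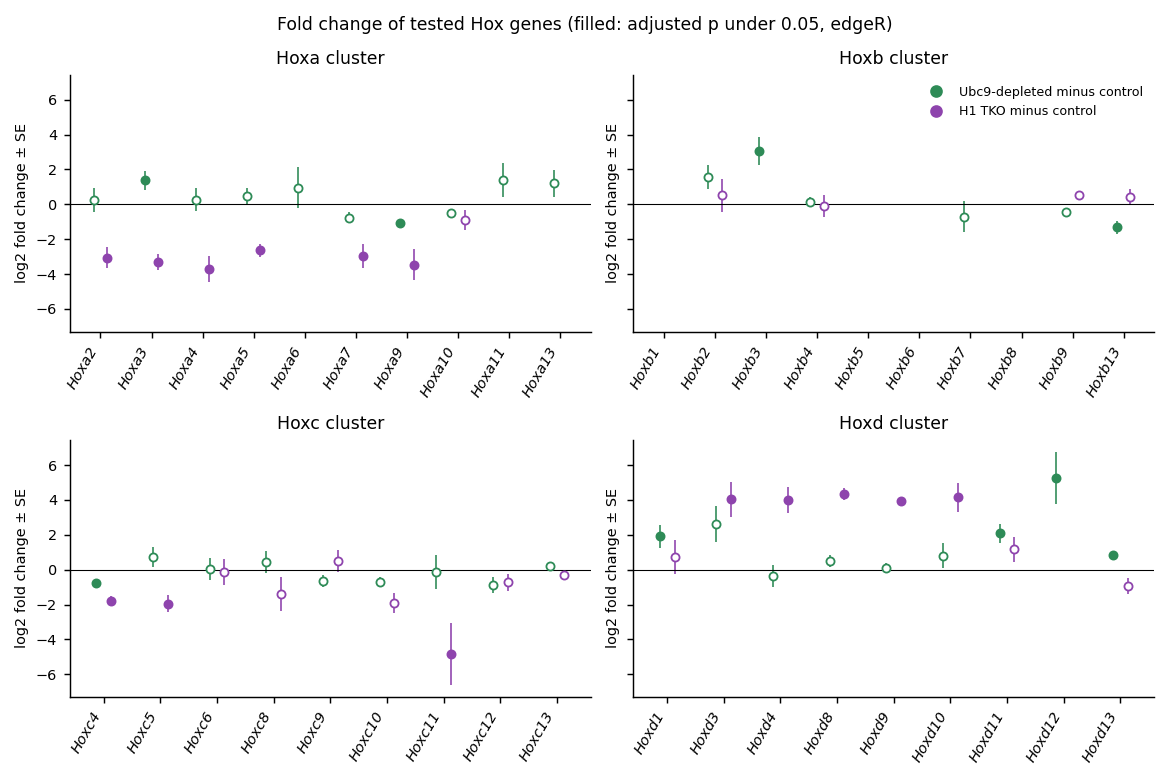
Log2 fold change ± SE (edgeR, vertical axis) of tested Hox genes in Ubc9-depleted (green) and H1 TKO (purple) cells, one panel per cluster, with filled points at adjusted p under 0.05. Purple points lie at -2.64 or below from Hoxa2 to Hoxa9 and at 3.92 or above from Hoxd3 to Hoxd10, while most green points lie nearer 0; the fitted values of Hoxd12 (green) and Hoxc11 (purple) rest on 1 or 2 counts in a group.

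The partners and regulators of Hox genes were read from lists of pathway genes, against the shares of all genes called: 8.59% higher and 8.43% lower in H1 TKO, and 21.1% higher and 15% lower in Ubc9-depleted cells (19% and 15.3% without depleted library 1). Among 9 Hox cofactors, Pbx2, whose homeodomain protein binds DNA together with HOX proteins, fell in both comparisons (-1.26 ± 0.22 in H1 TKO, edgeR adjusted p = 0.0099; -0.54 ± 0.11 in Ubc9-depleted cells, edgeR adjusted p = 0.00030). Pknox2 and Meis2 rose in H1 TKO (1.99 ± 0.24 and 0.77 ± 0.21), among 2 higher and 2 lower there and 0 higher and 3 lower in Ubc9-depleted cells. Of the Cdx and ParaHox genes, Cdx1, a direct activator of Hox genes in embryos, fell in both (-1.77 ± 0.29 in H1 TKO and -1.02 ± 0.12 in Ubc9-depleted cells). It was the only call among 4 tested in H1 TKO, and Cdx2 fell and Gsx1 rose among 8 tested in Ubc9-depleted cells. Without depleted library 1 Gsx1's call was lost, leaving 0 higher and 2 lower.

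Genes of the retinoic acid pathway, which makes, breaks down and senses the inducer of anterior Hox genes, moved in both directions in H1 TKO cells, with 5 of 16 tested higher and 4 lower. Aldh1a3, which makes retinoic acid, rose by 5.22 ± 0.24, and Dhrs3, which lowers its precursor, and the receptor gene Rarb rose by 1.90 ± 0.23 and 1.34 ± 0.31. Stra6, the retinol uptake receptor, and Stra8, which lies on chromosome 6, fell (-5.51 ± 0.76 and -2.09 ± 0.20). In Ubc9-depleted cells 6 of 16 rose and none fell, among them the receptor genes Rarg (0.76 ± 0.12) and Rxra (0.87 ± 0.12) and the synthesis gene Aldh1a2 (0.44 ± 0.11); 5 rose without depleted library 1.

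Polycomb complexes keep Hox clusters silent, and trithorax proteins oppose them. In Ubc9-depleted cells, of 11 PRC2 genes 4 fell, Suz12 by 0.48 and the methyltransferase gene Ezh2 by 0.35 on the log2 scale, and 9 of 12 trithorax and H3K27 demethylase genes fell, Kmt2a by 0.57; without depleted library 1, 3 and 6 fell and 1 trithorax gene rose. Of 16 PRC1 genes 3 rose and 6 fell, Cbx2 and Cbx7 among the latter (-0.54 ± 0.11 and -0.51 ± 0.12). In H1 TKO cells 1 of 11 PRC2 genes fell, the accessory gene Phf19 (-3.27 ± 0.39, edgeR adjusted p = 0.0028), and 0 of 12 trithorax genes were called (2 at an unadjusted p under 0.05 in edgeR, and 0 by DESeq2). Of 16 PRC1 genes 2 rose and 3 fell; Cbx8 rose (2.88 ± 0.30), and Pcgf1, Rybp and Phc1, all on chromosome 6, fell by 1.66, 1.52 and 0.82. Of 21 tested neighbours of the clusters 5 fell in Ubc9-depleted cells. For the 6 pathway lists, the median log2 fold changes were -0.55 to 0.21 in H1 TKO, except for -1.08 over the 4 tested Cdx and ParaHox genes, and -0.39 to 0.45 in Ubc9-depleted cells.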

How the data were processed

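Counts per gene were deposited by the authors in a separate table for the Ubc9 and the H1 libraries; the submitters' processing notes name cutadapt, STAR, HTSeq and DESeq2 on mm10, and no source used here gives their roles or versions. RNA was polyA-selected and libraries made, per the labels, with ScriptSeq v2 (Ubc9) or Lexogen SENSE V2 (H1). The members and gene lists were chosen with earlier results of these data known. All genes were fitted per table with edgeR 4.0.16 in R 4.3.3 (filterByExpr, minimum count 10 and total 15, TMM factors, quasi-likelihood F test, Benjamini-Hochberg at 0.05), on groups of 2 libraries; the interaction used all 8. CPM are counts per 1000000 of TMM-scaled totals. The scripts were tested on simulated data. Named genes were the members, with full statistics for called ones and the highest of each cluster, and the listed genes. Coordinates and exonic lengths came from GENCODE M21 (GRCm38; 23376 symbols by name, 670 by an older name, 375 unmatched) and promoters from RefSeq. Alternatives were DESeq2 1.42.0, RLE factors, library totals, no filter, 1 fit of 8 libraries, a replicate block, chromosome medians and leaving out each library; list counts without Ubc9-depleted library 1 were added after seeing the data. Within groups, libraries differed beyond counting noise and were kept apart. Values of some genes are not reported here, though counts and summed levels over members and lists include them. Counting intervals cover counting error only.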

Additional observations from a re-analysis of the deposited data

Results flagged for a closer look

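For 10 of the Hox genes described here the effect of Ubc9 depletion differed from that of H1 loss in the edgeR interaction test, and each was set apart for that reason. Ubc9 and H1 libraries used different kits, so each difference carries the kit. Hoxa2 to Hoxa5 lie on chromosome 6, whose median without Hoxa genes was -0.43 in H1 TKO and 0.12 in Ubc9-depleted cells. The interaction was not set against chromosome medians. The difference (Ubc9 effect minus H1 effect, log2) was 3.30 for Hoxa2, 4.64 for Hoxa3, 3.98 for Hoxa4 and 3.10 for Hoxa5, genes that fell in H1 TKO cells; in Ubc9-depleted cells Hoxa3 was called higher, at 1.37 with depleted library 1 and 0.21 without it (edgeR adjusted p = 0.71), and the others were not called. It was -4.39 for Hoxd4, -3.84 for Hoxd8 and -3.82 for Hoxd9, which rose in H1 TKO cells and were not called in Ubc9-depleted cells. It was 1.01 for Hoxc4, 1.71 for Hoxd13 and -0.99 for Hoxb9. The edgeR adjusted p was nearest the threshold for Hoxc4 (0.0496) and Hoxb9 (0.039), and was 0.00020 for Hoxd9 and 0.00029 for Hoxd8. Hoxc4 was not called by DESeq2 (adjusted p = 0.10), with RLE factors (edgeR adjusted p = 0.082) or without the expression filter (0.063), and Hoxb9 was not with library totals (0.14). Under removal of any single library of the 8, the calls of Hoxa3, Hoxa5, Hoxd4, Hoxd8 and Hoxd9 held. Without Ubc9-depleted library 1 the difference was 3.51 for Hoxa3, 2.31 for Hoxa5 and -5.10 for Hoxd4. Without H1 TKO library 1 it was 4.03 for Hoxa2 and 3.23 for Hoxa4, and without H1 TKO library 2 it was 5.89 for Hoxa4. For Hoxd4 it was -3.78 without H1 control library 1 and -5.51 without H1 control library 2. Hoxa4 lost its call without Ubc9-depleted library 1 (3.28, adjusted p = 0.086), and Hoxa2 lost it without Ubc9-depleted library 1, either Ubc9 control library or H1 TKO library 2 (adjusted p of 0.077 to 0.14). Hoxd13 lost it without any of the 4 Ubc9 libraries or H1 TKO library 1 (0.055 to 0.12), and Hoxb9 and Hoxc4 lost it without any library other than the H1 controls (0.089 to 0.37).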

How the results depend on the processing

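With all 8 libraries in 1 edgeR fit, 0 Hox genes were called higher and 2 lower in Ubc9-depleted cells (7 and 5 at an unadjusted p under 0.05), against 6 and 4 when the 4 Ubc9 libraries were fitted alone. Lower calls there numbered 7 with RLE factors, 1 with library totals and 7 against chromosome medians. Leaving out each library in turn gave 0 to 18 higher and 0 to 12 lower calls in Ubc9-depleted cells, 3 to 7 higher and 5 to 11 lower in H1 TKO cells, and 3 to 10 with a higher and 3 to 6 with a lower Ubc9 than H1 effect. A library left alone in its group was assumed to vary like the other libraries fitted, so these ranges also follow the spread of those libraries. Library totals moved the summed-level log2 ratio of Hoxc to 0.055 in Ubc9-depleted cells and of Hoxd to 2.84 in H1 TKO cells. The other alternatives kept the H1 counts at 5 higher and 8 to 11 lower, and no called member changed sign. Libraries with the same number did not deviate together (correlation 0.017 for Ubc9 and 0.056 for H1); the replicate block gave 5 higher and 5 lower in Ubc9-depleted cells, 5 and 10 in H1 TKO cells, and 9 and 4 for the interaction. With it, Hoxa3 (adjusted p = 0.086) lost and Hoxa7 (0.042) gained a call in Ubc9-depleted cells, Hoxc11 (0.0503) lost and Hoxc10 (0.028) gained one in H1 TKO cells, and Hoxa7 (0.023) and Hoxa9 (0.0075) gained one in the interaction. With 2 libraries a group and 34 to 39 members with a count in each library, members under 1 CPM rest on few counts and small changes in them were not detectable.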
